A study of Mus musculus with 12 samples.

Results

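Genomic imprinting was followed through 10 imprinted genes in 12 RNA-seq libraries of mouse cells on the way from fibroblasts to induced pluripotent stem cells (iPSC). The genes are H19, Igf2, Meg3, Rian, Mirg, Dlk1, Peg3, Mest, Cdkn1c and Plagl1. They were taken by symbol, through their Ensembl IDs in the GENCODE M21 annotation, as 10 of the 40384 genes in the deposited table. Each of them matched 1 row, and all 10 passed the filter on low values, which left 17114 genes for testing. Dlk1 passed it only through the MEF libraries, so its level there had to exceed that of other groups.

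The libraries form 4 groups of 3. Per the labels, every library descends from 4F2A cells, embryonic fibroblasts of homozygous male mid-gestation embryos that carry doxycycline-inducible Oct4, Sox2, Klf4 and Myc. MEF are the fibroblasts and iPSC are the pluripotent cells. D4 are reprogramming cultures at day 4 with the overexpression control (OE-NC), and D4_DUX are day 4 cultures with overexpression of Dux (OE-DUX). The overexpression time is 48 h for both D4 and D4_DUX. The labels give every library the same culture text, with LIF at 1000 U/mL and doxycycline at 2 μg/mL, and do not say whether libraries of a group are separate cultures. All p-values here therefore measure the spread between libraries, which may be technical. The Dux gene itself (Duxf3 in the annotation) was listed at 0 in each D4_DUX library and at 0.0247 FPKM or less elsewhere. These values lie under the 0.0396 to 0.0494 FPKM that 3 fragments give at the estimated depth. The group is for that reason called by its label, D4_DUX, throughout. Counted fragments were estimated from the values at 22523500 to 28112000 per library.

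An imprinted gene is transcribed mainly from the chromosome of 1 parent, because DNA methylation set in the egg or sperm marks its control region. Imprinted genes sit in clusters in which a long noncoding RNA and protein-coding genes share a control region, and many of them set the growth of the fetus and placenta. In mouse iPSC the Dlk1 to Dio3 cluster is known as a place where the imprint can be lost, with silencing of Meg3, Rian and Mirg. The values used here sum both parental copies, so they show the amount of transcript and not the imprint.

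All 10 genes were lower in D4 than in MEF, and in no case did the libraries of those groups overlap. Of all genes tested, 27.6% were called lower in that comparison and 34.2% higher, and the groups did not overlap for 29.8% that were lower and 36.7% that were higher. The median log2 difference over the 10 genes was -1.02, beside 0.03 over all genes tested. A call means an adjusted p under 0.05 from a limma model of log2(FPKM + 1), with the Benjamini-Hochberg method applied across the 17114 genes. FPKM corrects the fragments of a gene for its length and for the depth of the library. The added 1 makes a log2 difference smaller than the FPKM ratio for genes of low level, which matters for Dlk1, Mirg and Mest.

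From D4 the genes went separate ways. In iPSC compared with D4, 5 of the 10 were lower (H19, Igf2, Meg3, Cdkn1c and Plagl1) and 4 were higher (Mest, Mirg, Peg3 and Rian). In that comparison 33.9% of all genes tested were called lower and 48.5% higher. The groups did not overlap for the same numbers of the 10 genes, 5 lower and 4 higher, and for 33.8% and 48.6% of all genes. The split depended on scaling for Rian and Peg3, which lost their calls under median-ratio scaling (adjusted p 0.752 and 0.0731) and under quantile normalization (0.27 and 0.0725). Over the alternatives tried the adjusted p ran from 0.000653 to 0.752 for Rian and from 0.000102 to 0.0731 for Peg3. Against MEF, iPSC had 8 of the 10 genes lower, Mest higher and Mirg without a call, with 31.2% of all genes called lower and 51.0% higher. Without overlap, 9 of the 10 were lower and 1 higher, where the shares of all genes were 31.3% and 51.1%. The medians over the 10 genes were -0.19 for iPSC against D4 and -1.32 for iPSC against MEF, beside 0.16 and 0.21 over all genes.

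The libraries labelled D4_DUX had 5 of the 10 genes lower than D4 (H19, Igf2, Dlk1, Cdkn1c and Peg3) and 2 higher (Mest and Plagl1). Of all genes tested, 15.4% were called lower and 20.1% higher in this comparison. Without overlap, 4 of the 10 were lower and 3 higher, where the shares of all genes were 21.9% and 28.5%. The median over the 10 genes was -0.14, beside 0.02 over all genes. The comparisons share groups (D4 enters 3 of the 4), so they are given side by side and not as independent evidence.

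**Figure D1:**
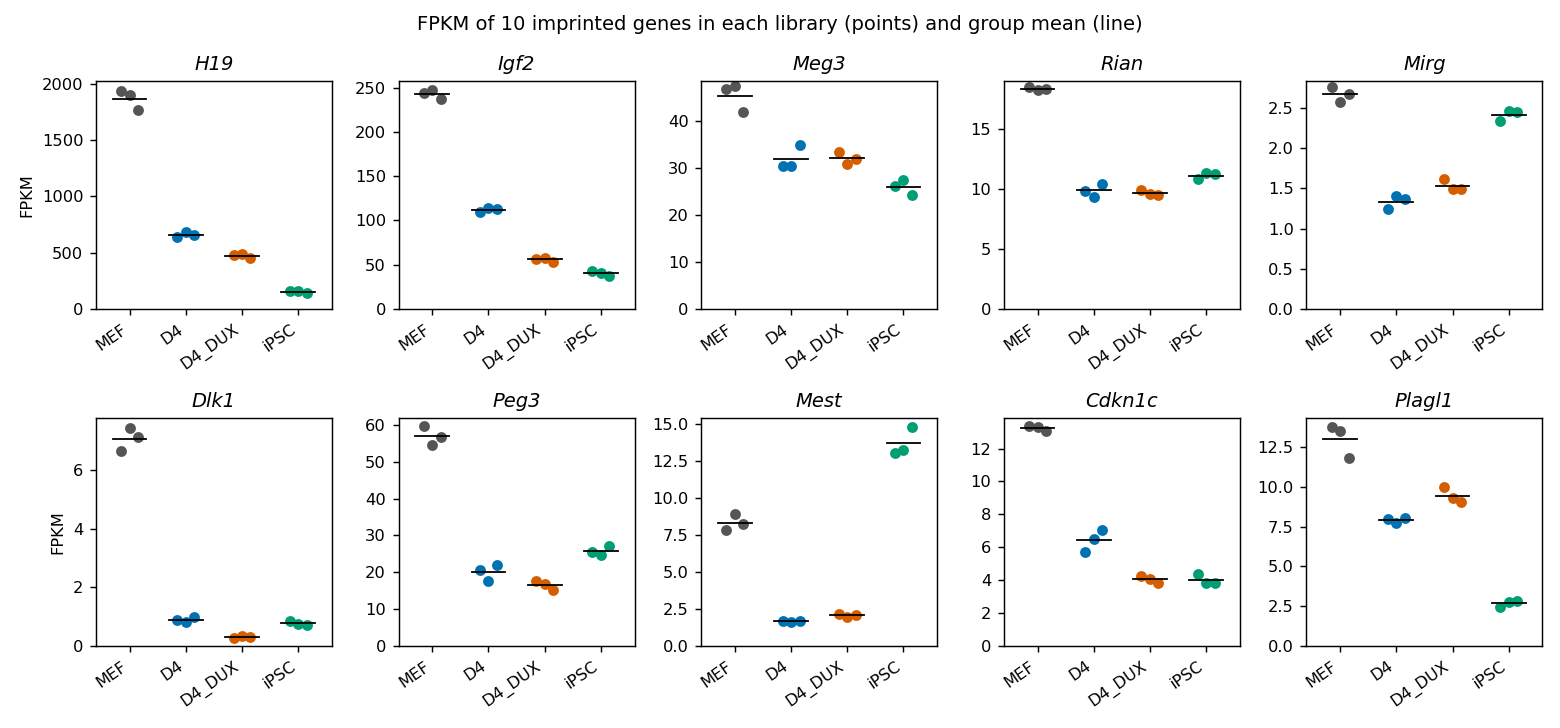
FPKM (vertical axes, linear, from 0, with a scale of its own for each gene) of the 10 imprinted genes in the 12 libraries, by group. Points are libraries and lines are group means (n = 3). MEF is the highest group for 9 genes, and Mest is highest in iPSC.

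H19, a long noncoding RNA transcribed from the maternal copy (chr7:142575529-142578143, minus strand, GRCm38), was among the most abundant transcripts of the fibroblasts, the 11th by mean FPKM of all genes in MEF. It measured 1933, 1902 and 1763 FPKM in the MEF libraries, 641, 680.0 and 660.4 in D4, 478, 487 and 455 in D4_DUX, and 159, 156 and 146 in iPSC. The 4 groups were fully separate and stood in the order MEF, D4, D4_DUX, iPSC. H19 ranked 45th in D4, 71st in D4_DUX and 266th in iPSC. The mean in iPSC, 154 ± 6.96 FPKM (SD, n = 3), was 12.2-fold lower than the MEF mean of 1866 ± 90.9 (SD, n = 3). As log2 differences, H19 was lower by -3.59 in iPSC against MEF (SE 0.05, adjusted p 1.08e-13), by -1.5 in D4 against MEF (adjusted p 4.36e-10) and by -0.48 in D4_DUX against D4 (adjusted p 4.23e-05).

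Igf2, the insulin-like growth factor that drives fetal growth, is transcribed from the paternal copy 72.6 kb away on the same strand (chr7:142650766-142666816). It measured 244, 247 and 237 FPKM in MEF, 109.7, 114 and 113 in D4, 56.4, 58.0 and 53.5 in D4_DUX, and 43.0, 40.6 and 37.3 in iPSC. Its groups were separate too, in the same order as those of H19. The D4_DUX mean was 2.01-fold below the D4 mean (log2 difference -0.99, SE 0.05, adjusted p 2.34e-07), the largest ratio among the 10 genes in that comparison after Dlk1. D4 stood 2.16-fold below MEF (log2 difference -1.10, adjusted p 4.05e-09) and iPSC 6.02-fold below MEF (-2.56, adjusted p 9.75e-13).

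The maternal noncoding RNA and the paternal growth factor did not fall by the same factor. The ratio of H19 to Igf2 FPKM was 7.93, 7.70 and 7.44 in MEF, 5.84, 5.95 and 5.82 in D4, 8.49, 8.39 and 8.50 in D4_DUX, and 3.69, 3.85 and 3.90 in iPSC. The groups did not overlap: D4_DUX had the highest ratio and iPSC the lowest. The log2 ratio differed by 0.53 between D4_DUX and D4, by -0.39 between D4 and MEF and by -1.01 between iPSC and MEF. In each case an exact two-sided permutation test gave p = 0.1, the smallest that 3 against 3 libraries allow, and 0.133 after adjustment over the 16 ratio tests made.

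H19 also holds a microRNA, miR-675, in an exon, and its mature arms are printed because the feature counted at that place followed H19 more closely than any other gene tested. They come from RefSeq (GRCm38.p6), with the seed, bases 2 to 8, in capitals.
mmu-miR-675-5p: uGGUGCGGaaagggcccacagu
mmu-miR-675-3p: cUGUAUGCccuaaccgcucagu
The arms lie at chr7:142577112-142577133 and chr7:142577078-142577099 on the minus strand and do not share a seed. The Mir675 feature had mean FPKM of 3469 in MEF, 1209.5 in D4, 893 in D4_DUX and 285 in iPSC. All of its 84 bases are H19 exon, and libraries of polyadenylated RNA fragments do not measure the mature microRNA, so these values cannot be told apart from H19. Mir675 had a Pearson r of 0.999 with H19 over the 12 libraries on the log2 scale. Among the genes ranked, the next most like H19 were Ckap4 (0.998), Aspn (0.998), Nfib (0.997) and Capn6 (0.997). Aspn, which encodes the matrix protein asporin, ran from a mean of 71.5 FPKM in MEF through 13.6 in D4 and 8.89 in D4_DUX to 1.09 in iPSC. Such correlations describe the 4 group levels that these genes share and carry no test.

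On chromosome 12, Dlk1 is the paternally expressed gene of its cluster and Meg3, Rian and Mirg are the maternally expressed noncoding RNAs that follow it on the plus strand. Dlk1 (chr12:109452823-109463336) encodes a membrane protein of the Notch ligand family that holds back the differentiation of preadipocytes. Meg3 (chr12:109541001-109571726) starts 77.7 kb beyond it, Rian, which carries small nucleolar RNAs, 32.2 kb after Meg3, and Mirg, which carries a large group of microRNAs, 68.0 kb after Rian. The RefSeq promoter windows of Dlk1 and Meg3 (GRCm38.p6, plus strand, 250 bases before to 50 after the start) are printed because these neighbours, read from opposite parental copies, moved by very different amounts. Capitals mark matches, on either strand, to TGCCGC (the motif that ZFP57 binds when it is methylated) and TATAAA (the TATA box). CCATNTT, the YY1 core motif, was also searched.
Dlk1, chr12:109452573-109452872: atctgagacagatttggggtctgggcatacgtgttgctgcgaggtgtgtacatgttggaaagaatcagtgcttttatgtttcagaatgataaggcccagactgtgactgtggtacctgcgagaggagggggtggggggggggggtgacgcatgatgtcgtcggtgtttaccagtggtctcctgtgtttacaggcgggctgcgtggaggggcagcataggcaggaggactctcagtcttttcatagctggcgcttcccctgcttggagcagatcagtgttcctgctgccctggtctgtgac
Meg3, chr12:109540746-109541045: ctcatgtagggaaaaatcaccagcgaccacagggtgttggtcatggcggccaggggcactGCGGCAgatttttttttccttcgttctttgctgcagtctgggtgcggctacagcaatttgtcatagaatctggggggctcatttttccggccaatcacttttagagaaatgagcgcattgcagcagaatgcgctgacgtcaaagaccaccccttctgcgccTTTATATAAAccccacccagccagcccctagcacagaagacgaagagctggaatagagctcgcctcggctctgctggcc
The Meg3 window printed had 1 ZFP57 match, 2 TATA box matches that overlap each other on opposite strands, and 13 CG dinucleotides. Another Meg3 window, chr12:109545148-109545447, where fewer M21 transcripts start (1 against 3), had none of the 3 motifs and 1 CG dinucleotide. The Dlk1 window had none of the 3 motifs and 9 CG dinucleotides. Of 32544 windows of this length in the table, 11.7% held TGCCGC, 16.1% CCATNTT and 13.6% TATAAA, and the median was 7 CG dinucleotides. A match describes letters in the window and is not a binding site.

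Dlk1 was the most reduced of the 10 genes at day 4, a direction fixed beforehand because it passed the filter only through MEF. It measured 6.66, 7.44 and 7.14 FPKM in MEF, 0.875, 0.819 and 0.995 in D4, 0.261, 0.342 and 0.288 in D4_DUX, and 0.856, 0.736 and 0.707 in iPSC. MEF stood above all other libraries, D4 overlapped with iPSC, and D4_DUX was the lowest. D4 was 7.90-fold below MEF (log2 difference -2.09, SE 0.06, adjusted p 8.44e-11). D4_DUX was a further 3.02-fold below D4 (-0.55, adjusted p 4.34e-05), a ratio that the added 1 compresses strongly at such levels. On recovered fragments, fitted with limma's voom, the log2 difference was -1.59. The lowest library held an estimated 39 fragments of Dlk1, so these low values still rest on counted reads. iPSC against D4 differed by -0.10 (adjusted p 0.124), and this passed the threshold at -0.18 under median-ratio scaling (adjusted p 0.011) and at -0.55 under quantile normalization (2.19e-06), within a range of 2.19e-06 to 0.358 over the alternatives.

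Meg3, a noncoding RNA known as a growth suppressor, changed much less than Dlk1. It measured 46.8, 47.3 and 41.9 FPKM in MEF, 30.4, 30.4 and 34.9 in D4, 33.4, 30.8 and 31.8 in D4_DUX, and 26.2, 27.4 and 24.2 in iPSC. MEF was the highest group, iPSC the lowest, and D4 and D4_DUX overlapped between them. Meg3 thus had a mean of 25.9 ± 1.58 FPKM (SD, n = 3) in iPSC, 53.5 to 60.3% of the MEF mean. Fibroblast markers were present in iPSC too, from Col1a1 at 184 FPKM against 3047 in MEF to Dcn at 211 against 186. What part of the Meg3 level came from fibroblasts was not tested. The log2 difference was -0.78 in iPSC against MEF (SE 0.07, adjusted p 3.73e-07), -0.50 in D4 against MEF (adjusted p 4.74e-05) and -0.29 in iPSC against D4 (adjusted p 0.00173). Between D4_DUX and D4 it was 0.01 (SE 0.07, adjusted p 0.965), and its sign changed with scaling and with the libraries left out.

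Rian measured 18.5, 18.2 and 18.3 FPKM in MEF, 9.84, 9.34 and 10.4 in D4, 9.88, 9.60 and 9.46 in D4_DUX, and 10.8, 11.3 and 11.2 in iPSC. The MEF libraries stood above the rest, and D4 overlapped with D4_DUX. D4 was lower than MEF by -0.83 on the log2 scale (SE 0.04, adjusted p 5.90e-09) and iPSC by -0.68 (adjusted p 1.02e-08). The small rise from D4 to iPSC, 0.16 (adjusted p 0.00264), became -0.01 with median-ratio scaling and -0.05 with quantile normalization. Between D4_DUX and D4 the difference was -0.03 (adjusted p 0.629).

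Mirg returned close to its fibroblast level in iPSC. It measured 2.76, 2.57 and 2.68 FPKM in MEF, 1.24, 1.4 and 1.37 in D4, 1.62, 1.49 and 1.49 in D4_DUX, and 2.34, 2.46 and 2.45 in iPSC. All 4 groups were separate, with D4 the lowest. iPSC stood at 87.5 to 92.2% of the MEF mean, a log2 difference of -0.10 (SE 0.05, adjusted p 0.0636). That difference was -0.28 under median-ratio scaling (adjusted p 0.000254) and -0.39 under quantile normalization (1.10e-05), within 1.10e-05 to 0.172 over the alternatives. Mirg was higher in iPSC than in D4 by 0.55 (adjusted p 4.72e-07) under all alternatives that kept the gene, with values of 0.27 to 0.85. The D4_DUX libraries lay above the D4 libraries, but the difference of 0.12 did not pass (adjusted p 0.082).

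Within the chromosome 12 cluster, maternal Meg3 stood higher relative to paternal Dlk1 in every other group than in MEF. Dlk1 passed the filter only through the MEF libraries, so a lower ratio in MEF was largely fixed beforehand. The tests of this ratio against MEF are therefore no evidence. The ratio of Meg3 to Dlk1 FPKM was 7.03, 6.36 and 5.87 in MEF, 34.7, 37.2 and 35.1 in D4, 128, 90.2 and 110.4 in D4_DUX, and 30.6, 37.2 and 34.3 in iPSC. D4_DUX stood above every other library, MEF below, and D4 and iPSC overlapped. The ratio of Meg3 to Rian had medians of 2.53 in MEF, 3.26 in D4, 3.36 in D4_DUX and 2.42 in iPSC. That of Rian to Mirg had medians of 6.84, 7.57, 6.37 and 4.58, with the 3 iPSC libraries between 4.58 and 4.63, below all others. The 3 noncoding RNAs lie in a row on 1 strand, and their proportions differed between groups. Exact two-sided permutation tests gave 0.1 for each ratio that separated the groups, the floor of the design, and 0.133 after adjustment over the 16 tests.

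**Figure D2:**
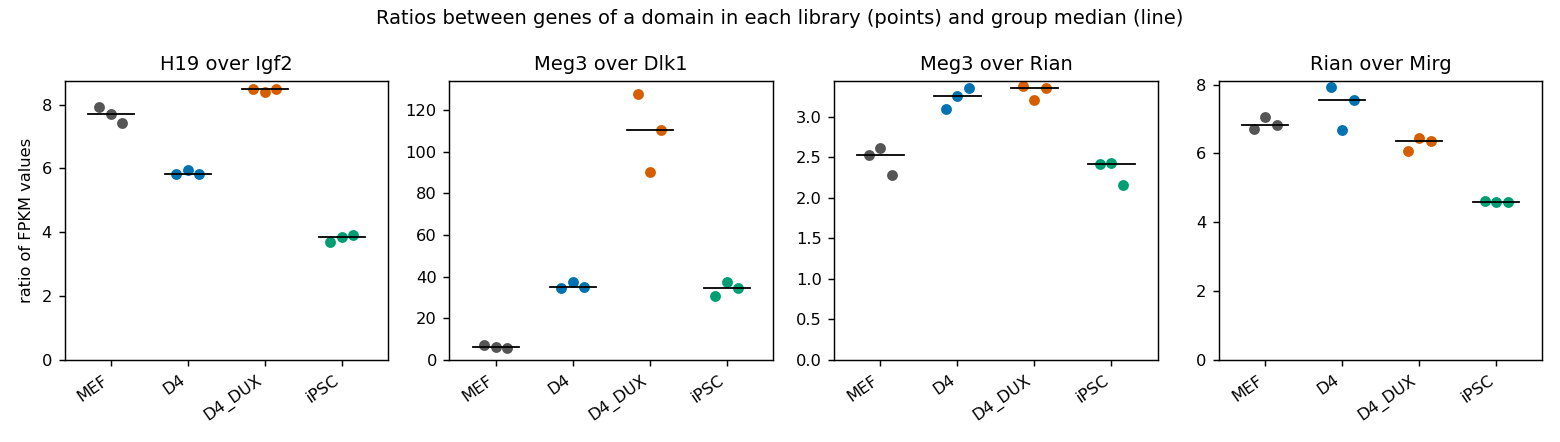
Ratio of the FPKM of 2 genes (vertical axes, linear, from 0) in each library, by group, for H19 over Igf2, Meg3 over Dlk1, Meg3 over Rian and Rian over Mirg. Points are libraries and lines are group medians (n = 3). H19 over Igf2 separates all groups, and Meg3 over Dlk1 is highest in D4_DUX, at 90.2 to 128.

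Cdkn1c, the inhibitor of cyclin-dependent kinases known as p57, is a maternally expressed brake on the cell cycle. It lies on chromosome 7, 792 kb beyond Igf2, under another control region (chr7:143458339-143461050). Cdkn1c measured 13.4, 13.3 and 13.1 FPKM in MEF, 5.72, 6.51 and 7.04 in D4, 4.25, 4.07 and 3.85 in D4_DUX, and 4.34, 3.79 and 3.79 in iPSC. The day 4 controls lay between MEF and the other groups, and D4_DUX overlapped with iPSC. D4 was 2.07-fold below MEF (log2 difference -0.95, SE 0.07, adjusted p 1.97e-07), and D4_DUX was 1.58-fold below D4 (-0.55, SE 0.07, adjusted p 0.000105). iPSC was 3.34-fold below MEF (-1.52, adjusted p 8.58e-10).

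Peg3, a paternally expressed zinc-finger protein (chr7:6703892-6730431), was the 743rd gene by level in MEF. It measured 59.8, 54.5 and 56.9 FPKM in MEF, 20.5, 17.6 and 22.1 in D4, 17.7, 16.9 and 15.2 in D4_DUX, and 25.4, 24.6 and 27.1 in iPSC. MEF was far above the rest, iPSC lay above both day 4 groups, and those 2 groups overlapped. D4 was 2.84-fold below MEF (log2 difference -1.47, SE 0.08, adjusted p 1.93e-08) and iPSC 2.22-fold below MEF (-1.12, adjusted p 6.44e-08). The difference between D4_DUX and D4, -0.26 (SE 0.08, adjusted p 0.0246), did not hold its call throughout. With all libraries kept it was -0.26 with no filter (adjusted p 0.0663) and -0.26 with 2 groups only (0.0882). It was -0.24 without D4 replicate 1 (adjusted p 0.0737), -0.19 without D4 replicate 3 (0.0921) and -0.20 without D4_DUX replicate 3 (0.0977), in a range of 0.00391 to 0.0977 over the alternatives.

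Mest, also called Peg1, is a paternally expressed gene for a protein of the hydrolase fold (chr6:30723547-30748465, plus strand). It fell steeply at day 4 and was the only one of the 10 above its MEF level in iPSC. Mest measured 7.82, 8.90 and 8.25 FPKM in MEF, 1.67, 1.64 and 1.70 in D4, 2.13, 1.95 and 2.11 in D4_DUX, and 13.1, 13.3 and 14.8 in iPSC. The groups were separate, in the order iPSC, MEF, D4_DUX, D4. D4 was 4.98-fold below MEF (log2 difference -1.80, SE 0.06, adjusted p 2.20e-10), and iPSC was 8.22-fold above D4 (2.46, adjusted p 3.52e-12) and 1.65-fold above MEF (0.66, adjusted p 4.07e-07). Under every scaling tried, iPSC stayed above MEF, with values of 0.39 to 0.72 over the alternatives. D4_DUX was above D4 by 0.20 (adjusted p 0.0182), which did not pass without D4_DUX replicate 1 (0.0618) or without D4_DUX replicate 3 (0.0569), in a range of 0.00655 to 0.0618.

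Plagl1, or Zac1, a paternally expressed zinc-finger transcription factor that restrains proliferation (chr10:13060504-13131694, plus strand), went the other way in iPSC. It measured 11.8 to 13.8 FPKM in the 3 MEF libraries, 7.97, 7.72 and 8.04 in D4, 10, 9.29 and 9.04 in D4_DUX, and 2.47, 2.73 and 2.81 in iPSC. All 4 groups were separate, and D4_DUX lay between D4 and MEF. iPSC was 4.87-fold below MEF (log2 difference -1.93, SE 0.06, adjusted p 5.17e-11) and 2.96-fold below D4 (-1.28, adjusted p 1.66e-09), and D4 was 1.65-fold below MEF (-0.65, adjusted p 2.23e-06). D4_DUX was above D4 by 0.23 (SE 0.06, adjusted p 0.0126). Without D4_DUX replicate 1 the adjusted p was 0.0549, the highest of the alternatives, which began at 0.00271. Leaving out that library took both Mest and Plagl1 below the threshold, so the count of genes higher in D4_DUX fell from 2 to 0.

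The promoter windows of Mest and Plagl1 are printed because these paternally expressed genes went opposite ways in iPSC. The window printed is the one whose start site most M21 transcripts share; for Mest another window, whose start lies 3 bases further, had as many transcripts (3). Capitals again mark the ZFP57 motif.
Mest, chr6:30737800-30738099: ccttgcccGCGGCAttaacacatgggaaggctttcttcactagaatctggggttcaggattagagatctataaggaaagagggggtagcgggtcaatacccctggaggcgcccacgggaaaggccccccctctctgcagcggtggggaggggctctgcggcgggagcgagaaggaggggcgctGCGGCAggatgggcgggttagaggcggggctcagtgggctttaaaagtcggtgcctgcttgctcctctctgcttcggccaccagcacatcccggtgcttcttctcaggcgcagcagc
Plagl1, chr10:13090582-13090881: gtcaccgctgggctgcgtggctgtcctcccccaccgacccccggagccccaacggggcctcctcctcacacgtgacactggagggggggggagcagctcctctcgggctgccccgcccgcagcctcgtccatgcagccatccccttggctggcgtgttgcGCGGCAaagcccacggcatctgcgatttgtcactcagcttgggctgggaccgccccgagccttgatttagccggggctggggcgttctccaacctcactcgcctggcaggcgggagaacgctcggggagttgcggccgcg
The Mest window held 2 ZFP57 matches and 17 CG dinucleotides, the Plagl1 window 1 match and 26 CG dinucleotides. Of all windows in the table, 83.0% had fewer CG dinucleotides than Plagl1 and 68.4% fewer than Mest.

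**Figure D3:**
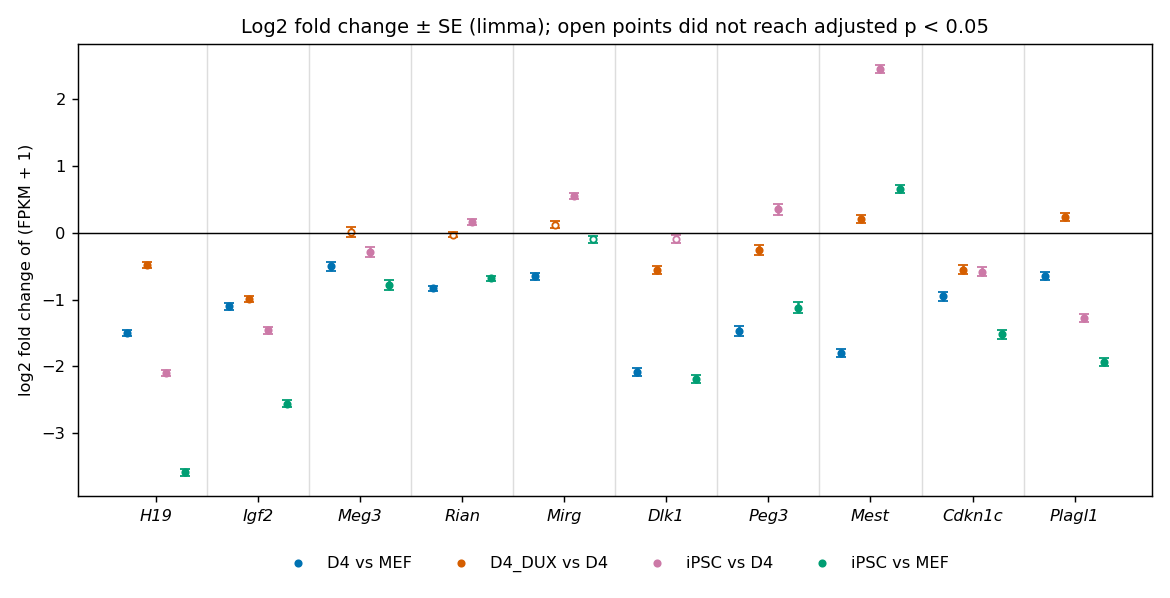
Log2 fold change of FPKM + 1 (vertical axis) for the 10 genes in 4 comparisons, as limma estimates with SE bars. Open points did not reach an adjusted p of 0.05. All D4 against MEF values lie below 0, from -2.09 for Dlk1 to -0.50 for Meg3, and Mest reaches 2.46 in iPSC against D4.

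Genes that lie in the same clusters as the 10 did not all move with them. Around Peg3, the maternally expressed Zim1 had means of 4.82 FPKM in MEF, 1.27 in D4, 0.605 in D4_DUX and 0.485 in iPSC, lower by -1.36 in D4 against MEF (adjusted p 6.70e-09) and by -0.50 in D4_DUX against D4 (adjusted p 0.000158). Its neighbour Zfp264, listed at 0 in MEF, had a mean of 7.18 FPKM in iPSC and passed the filter only through that group, and Usp29 was not tested. Next to Mest, Copg2, which encodes a coat protein of vesicles, rose from 9.56 FPKM in MEF to 14.5 in D4 (log2 difference 0.55, adjusted p 1.56e-06), where Mest fell. Copg2 was lower in D4_DUX, at 12.4 FPKM (-0.21, adjusted p 0.00635), where Mest was higher. Klf14, in the same cluster, was not tested.

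In the cluster of Cdkn1c the cell-surface tetraspanin Cd81 rose from 128 FPKM in MEF to 283 in D4 (1.13, adjusted p 7.35e-11) and was at 307 in D4_DUX (0.12, adjusted p 0.0116) and 111 in iPSC. The transporter gene Slc22a18 rose from 0.488 to 5.35 FPKM between MEF and D4 (2.09, adjusted p 2.22e-09), and Osbpl5 from 12.3 to 18.5 (0.55, adjusted p 2.40e-07). Tssc4 rose from 14.0 FPKM in MEF to 16.8 in D4 (0.25, adjusted p 0.00123) and to 25.5 in D4_DUX (0.58, adjusted p 1.20e-05). These 4 genes thus rose at day 4 while Cdkn1c fell. Phlda2 and Ascl2, which act in the placenta, passed the filter only through iPSC, with means there of 5.40 and 1.57 FPKM. Kcnq1 and its antisense RNA Kcnq1ot1 were not tested, nor were Ins2 beside Igf2 and Rtl1 and Dio3 in the chromosome 12 cluster.

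Over the wider set of 49 other imprinted genes, 36 were tested, and the lowering at day 4 was not general. Which parental copy of the 36 was read in these cells was not tested, so some may not be imprinted here. In D4 against MEF 14 were higher and 11 lower, with a median of 0.06. These are 38.9% and 30.6% of the 36, near the 34.2% and 27.6% of all genes. Lower genes included the retrotransposon-derived Peg10 (-0.87), Nnat (-1.31) and Tfpi2 (-1.37), and higher genes included Trappc9 (0.70). In D4_DUX against D4, 9 were higher and 6 lower, with a median of 0.01. These are 25.0% and 16.7% of the 36, beside 20.1% and 15.4% of all genes. The higher ones included Impact (0.26) and Ppp1r9a (0.30), and the lower ones Sgce (-0.38), the growth factor adaptor Grb10 (-0.34) and Zdbf2 (-0.33). The 9 became 5 under quantile normalization.

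In iPSC against MEF, 21 of the 36 were higher and 12 lower, and against D4, 17 were higher and 12 lower. Of the higher genes in each, 5 (Zfp264, Phlda2, Ascl2, Mkrn3 and Nespas) passed the filter only through iPSC and so could only be higher there. As shares of the 36, the calls were 58.3% and 33.3% against MEF and 47.2% and 33.3% against D4, beside 51.0% and 31.2%, and 48.5% and 33.9%, of all genes tested. Peg10 rose from 3.54 FPKM in MEF and 1.49 in D4 to 42.6 in iPSC (log2 difference against MEF 3.26, adjusted p 3.23e-12). Snrpn, the splicing protein gene of the Prader-Willi cluster, rose from 6.07 in MEF to 38.0 (2.46, adjusted p 2.14e-13), and Zdbf2 from 1.5 to 15.9 (2.76, adjusted p 6.63e-12). Gnas, the stimulatory G protein gene, was lower in iPSC (-1.13), as were Grb10 (-1.36) and Ndn (-0.69). The share of all calls that were higher was 62.1% in iPSC against MEF, 51.5% with median-ratio scaling and 46.6% with quantile normalization. Against D4 it was 58.8%, 50.9% and 46.7%. Those scalings moved the median of all genes by -0.18 and -0.28 against MEF and by -0.15 and -0.23 against D4. Under both, 18 of the 36 were higher and 14 lower against MEF.

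Grouped by parental copy, with the 10 genes included, 13 of 23 tested paternally expressed genes were lower in D4 than in MEF and 4 higher, or 56.5% and 17.4% beside 27.6% and 34.2% of all genes. Of the 13, 5 are among the 10 genes chosen, and Dlk1 passed the filter only through MEF, so it could only be lower. Of 20 tested maternally expressed genes 8 were lower and 8 higher, or 40.0% each. The 8 lower genes include H19, Meg3, Rian, Mirg and Cdkn1c, which are also among the 10 chosen. The medians were -0.26 and 0.05. In iPSC against MEF the paternally expressed genes had 13 higher and 9 lower and the maternally expressed genes 8 higher and 9 lower. These are 56.5% and 39.1% of the paternally and 40.0% and 45.0% of the maternally expressed genes, beside 51.0% and 31.2% of all genes. Of the higher, 3 paternally and 2 maternally expressed genes passed the filter only through iPSC. In iPSC against D4 the 23 paternally expressed genes had 13 higher and 5 lower (12 and 7 under median-ratio scaling, 12 and 8 under quantile normalization). The 20 maternally expressed genes had 7 higher and 10 lower (5 and 12 under each of these scalings). Without these scalings, 48.5% of all genes tested were higher and 33.9% lower in this comparison. Here too, 3 paternally and 2 maternally expressed genes called higher passed the filter only through iPSC, so they could only be higher there. The difference between the lists was not tested.

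**Figure D4:**
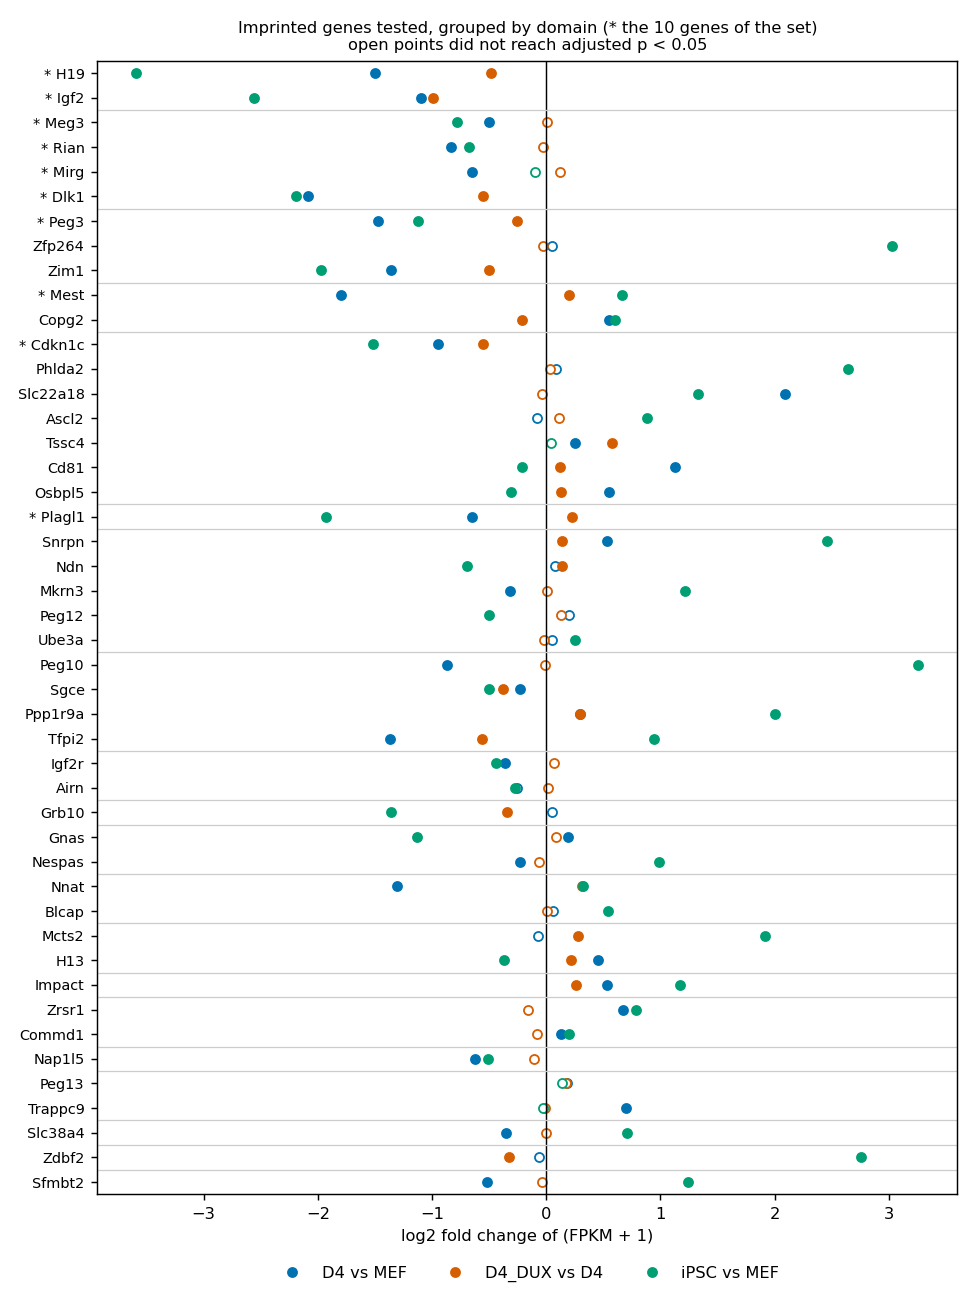
Log2 fold change of FPKM + 1 (horizontal axis) of the tested imprinted genes, in rows grouped by cluster, for D4 against MEF, D4_DUX against D4 and iPSC against MEF. Stars mark the 10 genes and open points did not reach an adjusted p of 0.05. The 10 genes lie left of 0 in D4 against MEF, while Cd81 (1.13) and Slc22a18 (2.09) lie right of it.

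Factors that set, keep or remove DNA methylation at imprints were followed as a list of 13 genes. It holds the imprint keepers Zfp57, Zfp445, Trim28 and Setdb1, the maintenance pair Dnmt1 and Uhrf1, the de novo methylation genes Dnmt3a, Dnmt3b and Dnmt3l, the demethylases Tet1 and Tet2, and Dppa3 and Ctcf. At day 4, 7 were lower than in MEF, or 53.8% of the list beside 27.6% of all genes. The maintenance methyltransferase Dnmt1 fell from 25.4 to 13.9 FPKM (-0.83, adjusted p 3.11e-08), and its partner Uhrf1 from 21.1 to 10.9 (-0.89, adjusted p 6.67e-08). In iPSC the 13 were higher than in MEF and than in D4, also under both scalings, beside 51.0% and 48.5% of all genes. Of the 13, however, 4 passed the filter only through iPSC and could only be higher there. These were Dnmt3l at 82.0 FPKM, Tet1 at 37.3, Dnmt3b at 34.7 and Dppa3 at 4.63. Zfp57, which binds the methylated motif printed above, rose from 10.7 FPKM in MEF to 70.3 in iPSC (2.61, adjusted p 4.48e-11). In D4_DUX against D4, 3 were higher, or 23.1% of the list beside 20.1% of all genes: Setdb1 (0.24, adjusted p 0.00908), the insulator protein Ctcf (0.20, adjusted p 0.00919) and Trim28 (0.13, adjusted p 0.0298, 0.093 with median-ratio scaling and 0.168 with quantile normalization).

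Partners of Igf2 were read from a list of 6 receptors and mRNA-binding proteins. Igf2r, the maternally expressed receptor that clears the growth factor, had a mean of 83.3 FPKM in MEF and 64.8 in D4 (-0.36, adjusted p 0.000186). The signalling receptors Igf1r and Insr were lower in iPSC than in MEF, by -0.57 (adjusted p 1.06e-06) and -0.89 (adjusted p 1.21e-07). Igf2bp1, which binds the Igf2 mRNA, rose from 7.27 FPKM in MEF to 49.8 in iPSC (2.62, adjusted p 6.67e-12). In D4_DUX against D4, Igf2bp3 was higher by 0.17 (adjusted p 0.015) and Igf2bp2 by 0.13 (adjusted p 0.0418, 0.0722 with median-ratio scaling and 0.158 with quantile normalization).

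Cell-type markers also differed between the groups. The sum of 10 fibroblast markers, most of it in MEF from Col1a1 (mean 3047 FPKM) and Col1a2 (1117), was 5997 to 6125 FPKM in MEF, 53.1 to 55% of the MEF mean in D4, 40.1 to 41.4% in D4_DUX and 12.2 to 16.1% in iPSC. The markers did not all fall: 8 of the 10 were lower in D4 than in MEF, while Thy1 (0.79, adjusted p 1.85e-06) and Dcn (0.52, adjusted p 1.05e-05) were higher. Dcn was also higher in iPSC than in MEF by 0.18 (adjusted p 0.0137), which did not pass with median-ratio scaling (-0.06, adjusted p 0.317). Over the same groups H19 stood at 34.3 to 36.4%, 24.4 to 26.1% and 7.80 to 8.50% of its MEF mean, and Igf2 at 45.2 to 47.1%, 22.1 to 23.9% and 15.4 to 17.7%. Mest, Mirg, Peg3 and Rian were higher in iPSC than in D4, while the fibroblast sum was lower there. With median-ratio and quantile scaling Peg3 no longer passed this test (0.17 in each, adjusted p 0.0731 and 0.0725), nor did Rian (-0.01 and -0.05, adjusted p 0.752 and 0.27). A list of 12 macrophage markers, none of them under 0.1 FPKM in MEF, summed to 1652 to 1691 FPKM in MEF, 182 to 220.2 in D4, 43.6 to 44.8 in D4_DUX and 131 to 173 in iPSC. All 12 were lower in D4 than in MEF and lower again in D4_DUX than in D4, beside 27.6% and 15.4% of all genes tested. Ptprc passed the filter only through MEF, so its direction in D4 against MEF was fixed beforehand. The 10 pluripotency markers summed to 1382 to 1541 FPKM in iPSC and to 0.715 or less in every other library, and 7 of the 10 were under 0.1 FPKM in each of the other groups. The part of cell makeup in the results was not tested, and in bulk RNA fewer cells of a type and less RNA per cell cannot be told apart.

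The lists for neural cells, muscle, endothelium, trophoblast and endoderm had sums of at most 69.3 FPKM, reached by the neural list in D4_DUX. Of that list Sox1, Pax6, Dcx and Neurod1 were under 0.1 FPKM there, while Nes and Tubb3 rose at each step. Nes had means of 8.80 FPKM in MEF, 16.4 in D4 and 27.4 in D4_DUX (log2 differences 0.83, adjusted p 1.48e-06, and 0.71, adjusted p 3.62e-05). Tubb3 had means of 13.4, 19.4 and 27.4 (0.50, adjusted p 2.81e-06, and 0.48, adjusted p 2.92e-05). Of the endothelial list, Tek rose from 0.113 FPKM in MEF to between 13.3 and 13.9 in the D4 libraries and a mean of 21.3 in D4_DUX (3.70, adjusted p 8.95e-13, and 0.62, adjusted p 2.01e-05), while Cdh5, Tie1, Emcn and Cldn5 were under 0.1 FPKM in each of these groups.

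**Figure D5:**
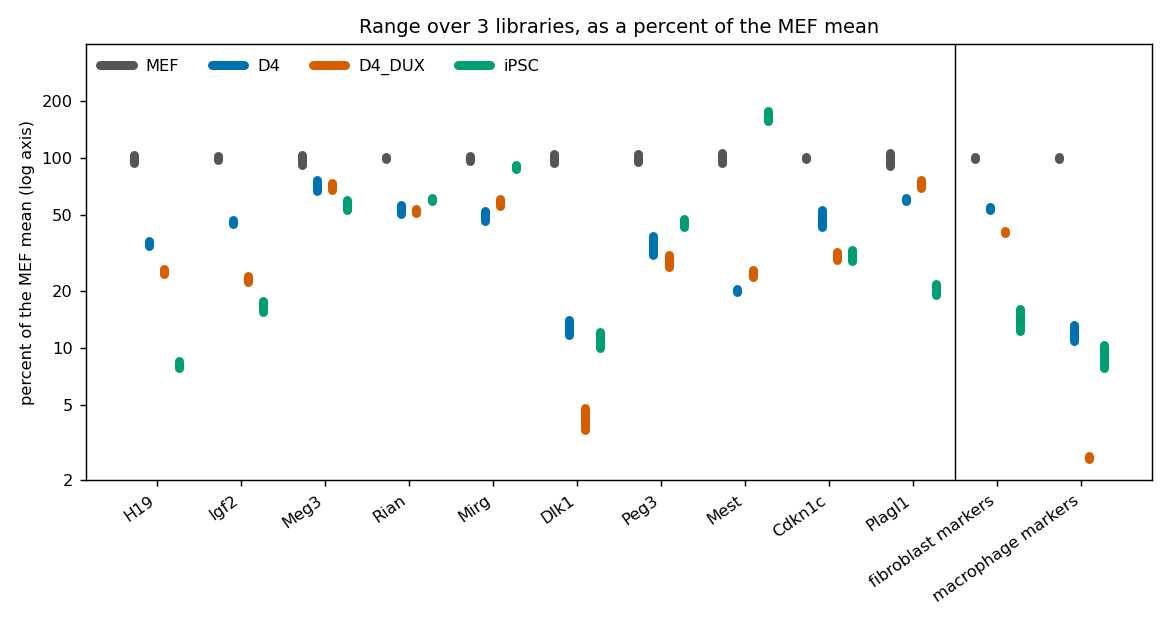
Range over the 3 libraries of each group, as a percent of the MEF mean (vertical axis, log scale), for the 10 genes and, right of the line, for the sums of 10 fibroblast and 12 macrophage markers. Mest in iPSC lies above 100, and Mirg in iPSC at 87.5 to 92.2. H19 in iPSC lies at 7.80 to 8.50, below the fibroblast markers at 12.2 to 16.1.

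Some of these genes share exons with other annotated genes, and the sources used here do not state whether reads were counted by strand. Inside Mirg, Mir409 and Gm24321 lie at the same place on opposite strands, with 79 and 80 bases. Their means were 0.516 and 0.509 FPKM in MEF, 1.03 and 1.02 in D4, 0.704 and 0.695 in D4_DUX, and 0.319 and 0.315 in iPSC. These values are alike but for length, so reads at that place were not told apart by strand. Of the exon bases of Gm49394, 75.9% are also Igf2 exon on the same strand, and its means of 276, 132, 65.3 and 46.7 FPKM in MEF, D4, D4_DUX and iPSC follow Igf2. Gm44732, antisense to Cdkn1c with 98.4% of its exon bases inside Cdkn1c exons, had means of 14.9, 7.16, 4.68 and 4.81 FPKM, close to those of Cdkn1c. Mest and Copg2 overlap at their ends by 912 exon bases on opposite strands, yet moved apart. The levels of Igf2, Cdkn1c and Mest are for that reason less certain than those of Meg3, Dlk1 or Peg3.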

How the data were processed

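RNA-seq was made from 12 libraries in 4 groups of 3 with polyadenylated RNA selection and a stranded kit, per the labels' protocols. The authors deposited gene values in FPKM. The genome build was mm10, per the submitters' processing notes. The sources used here do not name the aligner, the counter, the annotation or the use of strand. Of 40384 gene IDs, 40225 (99.6%) matched GENCODE M21 (GRCm38). Low FPKM values times exon length were steps of a constant per library (77.5 to 78.9% whole within 0.01). A fragment was taken as 2 steps, although only 59.9 to 63.4% of the whole steps were even. This assumption gave the depth and the recovered fragments used for floors of 3 fragments and for 1 alternative. No 2 libraries were identical (0 of 66 pairs).

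Genes that reached an FPKM of 1 in 3 or more libraries were tested on log2(FPKM + 1) with limma 3.58.1 in R 4.3.3, with 4 group means, a variance prior that follows mean expression and Benjamini-Hochberg adjustment. The calculation was tested on simulated data. Ratios were compared with exact permutation tests. Alternatives changed the added value, filter, scaling, model and libraries. The 10 genes and all lists were chosen with earlier results of these data known. Beside the 10, the text names genes of their clusters, up to 4 other imprinted genes per direction and comparison with the smallest adjusted p, and up to 3 genes of each list; other genes named were chosen after their values were seen. Promoter windows and microRNAs come from RefSeq, which matched 8 of the 10 genes (not H19 or Cdkn1c) and 22 of 24 hosted microRNA genes.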

Additional observations from a re-analysis of the deposited data

How the results depend on the processing

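Each comparison was recomputed under 11 alternatives of processing and with each of its 6 libraries left out in turn. Of the counts of calls, 263 alternative values were within 1.5 times the reported count and 9 were not. Of the log2 differences of the 10 genes, 653 kept direction and call and 8 changed sign. With the sign kept, 10 lost a call and 5 gained one. Among the changes of sign, Rian in iPSC against D4 also lost its call under median-ratio scaling and quantile normalization. The genes higher in D4_DUX against D4 numbered 0 to 2 with 1 library left out, 0 without D4_DUX replicate 1 and 1 without D4_DUX replicate 3. Other imprinted genes higher in D4_DUX against D4 numbered 5 with quantile normalization. Of the 10 genes, 2 were higher in iPSC against D4 with median-ratio scaling, and 2 with quantile normalization. At an FPKM of at least 5, where 23 other imprinted genes were tested, 5 were lower in D4 against MEF, 13 higher and 7 lower in iPSC against MEF, and 10 higher in iPSC against D4. Mirg was not tested there. Meg3 in D4_DUX against D4 was -0.02 with median-ratio scaling, -0.03 with quantile normalization and -0.03 to 0.07 with 1 library left out. Rian in that comparison was -0.06 to 0.01 with 1 library left out, and in iPSC against D4 it was -0.01 with median-ratio scaling and -0.05 with quantile normalization; the cause was not tested. Mirg in iPSC against MEF passed with a prior without trend (0.0386).

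Replicate numbers did not pair the libraries. Of 18 pairs with the same number in different groups, 0 correlated above 0.1 (r -0.146 to 0.07), and 3 of 12 libraries correlated best with their own number. With the number as a replicate block, the calls were 2 higher and 5 lower in D4_DUX against D4, 10 lower in D4 against MEF, and 1 higher and 8 lower in iPSC against MEF, as without it.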

Other observations

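Rian and Mirg carry small RNAs, and the deposited table lists many of them as genes of their own. The assay selected polyadenylated RNA. What part of these values comes from the host transcript was not tested. Gm24895, a small nucleolar RNA gene of 74 bases inside a Rian exon, had the highest level of those in Rian, with means of 273 ± 28.1 FPKM in MEF, 159.6 ± 15.0 in D4, 175 ± 13 in D4_DUX and 185 ± 11.7 in iPSC (SD, n = 3). The Rian mean was 18.3 FPKM in MEF. Mir410, inside a Mirg exon, had means of 4.59 ± 0.0954 in MEF, 2.07 ± 0.0772 in D4, 3.67 ± 0.611 in D4_DUX and 6.33 ± 1.37 in iPSC (SD, n = 3). Its iPSC libraries lay above all MEF libraries, unlike those of Mirg. Mir370, in a Rian intron, had a mean of 2.41 in MEF, 3.52 in D4, 2.01 in D4_DUX and 0.390 in iPSC, where its libraries ran from 0 to 0.7. Mir410 has 81 bases and Mir370 has 79. At such lengths and levels the values rest on few fragments, so differences between the groups are uncertain.

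The 22 hosted microRNA genes that matched RefSeq gave 41 mature sequences with 40 distinct seeds. The only shared seed joined 2 microRNAs of Mirg, printed with bases 2 to 8 in capitals.
mmu-miR-453: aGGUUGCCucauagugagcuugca
mmu-miR-496a-5p: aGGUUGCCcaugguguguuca

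Among the genes ranked, with the same names left out as for H19, 5 were most like Meg3 over the 12 libraries. They were Nfxl1 (Pearson r 0.984), Dnm3os (0.982), Llgl1 (0.982), Atf7 (0.982) and Mrtfa (0.981). Dnm3os, a noncoding RNA that carries microRNAs of its own, had means of 21.3 FPKM in MEF, 8.29 in D4, 9.29 in D4_DUX and 4.75 in iPSC. Within H19, the features Gm27483 and Gm27786, annotated on the opposite strand, had means of 5105 and 5598 FPKM in MEF and 414 and 474 in iPSC.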
